A study of Mus musculus with 12 samples.

Results

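The genes described here are 36 markers of T cells and intraepithelial lymphocytes (IELs), a list of gene symbols matched to the Ensembl identifiers of the count table, which held 54838 genes. The list was chosen with earlier results of these data known. All 36 were found, and 35 passed the filter on low counts that left 15938 genes for testing. Klre1, an inhibitory receptor of NK cells, did not pass, with 1 to 8 reads per library. The table came from whole ileum of female C57BL/6J mice, 8 to 14 weeks old and kept under specific pathogen-free conditions. All mice drank for 7 days either normal water or water with 25 mM zinc sulphate (ZnSO4), and then received 1 injection of 200 µg dexamethasone (Dex), a synthetic glucocorticoid, in phosphate-buffered saline (PBS), or of PBS alone. The ileum was taken 2 h after the injection. This gave 4 groups of 3 mice, called water + PBS, water + Dex, ZnSO4 + PBS and ZnSO4 + Dex, so every control mouse was also injected. No gene was mutated in any group. The study asked how oral zinc and glucocorticoids change transcription in the gut.

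T cells recognise antigen with a receptor of αβ or γδ chains that signals through the CD3 complex, and the kinases Lck and Zap70 pass the signal on. The small intestine holds a large population of IELs, T cells that lie between the epithelial cells. Many of them carry the CD8αα homodimer, are bound to E-cadherin on enterocytes by the integrin CD103 (the αE chain of which is encoded by Itgae), were drawn to the gut by the chemokine receptor CCR9, depend on interleukin 15 through the receptor chain encoded by Il2rb, and store granzymes. Dex acts on the glucocorticoid receptor, which is present in lymphocytes and in epithelial cells alike. Since RNA was taken from whole tissue, a lower level of these transcripts can reflect fewer cells of a type or less RNA per cell, and these cannot be told apart.

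Between 10760132 and 11827487 reads per library were counted on genes, with a median of 11388606, and the members held 2321 to 7341 of them. Values are normalised counts, which are counts scaled by TMM to a mean effective library of 11396844 reads, and are given for replicates 1, 2 and 3 of a group in that order. LFC is the log2 fold change with its standard error (SE), and a gene was called upregulated or downregulated at an adjusted p under 0.05 over all genes tested, with no cut-off on the LFC. Genes known to respond to the treatments did so. Mt1, which encodes a zinc-binding metallothionein, was upregulated by ZnSO4 with LFC 4.60, SE 0.20, adjusted p = 2.6e-07, and Fkbp5, a glucocorticoid receptor target, was upregulated by Dex with LFC 3.36, SE 0.09, adjusted p = 3.9e-09. Transcripts of T cells and IELs were detected. Cd3e and the receptor constant genes Trac, Trdc and Tcrg-C1 had reads in all 12 libraries, whereas Ncr1 and Eomes, markers of NK cells, had 0.00 to 10.03 and 0.00 to 4.71 normalised counts and were not tested. Libraries of the same group differed in B cell transcript. The summed level of 12 B cell and follicle genes was 834 counts per 1000000 reads (CPM) in water + PBS replicate 2, 609 in ZnSO4 + PBS replicate 2 and 326 in water + Dex replicate 1, and 20.1 to 232 in the other 9 libraries. Counts of members called that rest on those 3 libraries are given with and without them.

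The promoters of 3 members are shown first because the genes stood out in the results: Gzma and Gzmb had the largest falls by ZnSO4 among the cytotoxic genes, and Cxcr6 was downregulated by both treatments. Each is the 250 bases before the start of transcription in RefSeq (GRCm38.p6), written 5′ to 3′ on the strand of the gene, and capitals mark matches to the motifs listed after them. Gzma lies at chr13:113100982-113101231 (minus strand), Gzmb at chr14:56262335-56262584 (minus strand) and Cxcr6 at chr9:123806227-123806476 (plus strand).
Gzma: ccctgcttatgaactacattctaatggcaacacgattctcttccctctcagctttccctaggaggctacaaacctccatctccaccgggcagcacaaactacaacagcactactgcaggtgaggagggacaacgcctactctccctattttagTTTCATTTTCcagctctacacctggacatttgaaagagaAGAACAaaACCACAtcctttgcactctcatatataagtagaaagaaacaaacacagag
Gzmb: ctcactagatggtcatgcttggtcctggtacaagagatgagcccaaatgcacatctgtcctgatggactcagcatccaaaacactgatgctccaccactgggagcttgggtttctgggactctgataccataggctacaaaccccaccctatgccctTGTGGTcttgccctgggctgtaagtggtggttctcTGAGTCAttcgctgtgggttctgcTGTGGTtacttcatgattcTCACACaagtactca
Cxcr6: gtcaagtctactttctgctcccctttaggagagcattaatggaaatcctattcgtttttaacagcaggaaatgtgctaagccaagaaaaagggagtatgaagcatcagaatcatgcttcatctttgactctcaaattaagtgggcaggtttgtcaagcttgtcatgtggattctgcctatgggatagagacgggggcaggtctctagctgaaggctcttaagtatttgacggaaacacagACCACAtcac
These windows were searched for 6 motifs on both strands, 31 windows of 24 members and 32851 windows of all genes. The RUNX core TGTGGT was present in 13 of the 31 windows of members and in 14.05% of all windows. The T-box half-site TCACAC was present in 10 and in 12.3%. The glucocorticoid half-site AGAACA was present in 9 and in 16.1%, and the full element of AGAACA, 3 free bases and TGTTCT, which contains it, in none of the 31 and in 3 of all windows. The AP-1 motif TGANTCA was found among members in Gzmb alone (6.75% of all windows), and the interferon element core of GAAA, 2 free bases and GAAA in Gzma alone (2.98%). In the printed windows, Gzmb had 2 RUNX cores, 1 AP-1 motif and 1 T-box half-site. Gzma had 1 interferon element core, 1 glucocorticoid half-site and 1 RUNX core, and Cxcr6 had 1 RUNX core. Windows of 1 gene can overlap, and a match describes letters, not binding.

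Levels of the members were far apart. Per kilobase of exon and averaged over the 12 mice, Gzma, which encodes the granule protease granzyme A, had 85.4 CPM per kb. It was followed by the chemokine gene Ccl5 (30.0 CPM per kb), Gzmb (20.99), Cd7 (10.4) and Nkg7 (6.87). The scaffold gene Themis (0.222), the kinase gene Txk (0.214) and Klre1 (0.110) were lowest. Gzma alone held 22.2% of the summed CPM of the members, and Gzma, Gzmb and Ccl5 together held 37.4%. With Bcl11b and Itgae they held 50.8%, so sums over the list weigh these 5 genes most.

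Transcripts of T cell genes were lower in mice on ZnSO4. The summed level of the 36 members was 538, 626 and 407 CPM with water + PBS, 463, 696 and 462 CPM with water + Dex, 249, 288 and 215 CPM with ZnSO4 + PBS, and 211, 254 and 235 CPM with ZnSO4 + Dex. All 6 ZnSO4 mice were below all 6 water mice, and the mean of the ZnSO4 mice was 45.5% of that of the water mice. Averaged over both injections, 23 of the 35 members tested were downregulated by ZnSO4 and 0 were upregulated, against 6.52% of all genes downregulated and 6.24% upregulated. All 35 had an LFC below 0, with a median of -0.99, where the median over all genes was -0.00. In 10 members (Cd3e, Cd8a, Cd7, Gzma, Gzmb, Ctsw, Cd160, Ccl5, Ccr9 and Il2rb) the 6 ZnSO4 mice did not overlap with the 6 water mice, which was so, in the downward direction, for 2.64% of all genes. Of the 23 calls, 14 were kept in each of the 12 fits that left out 1 library: Cd3e, Cd3g, Cd8a, Cd7, Gzma, Gzmb, Nkg7, Cd160, Ccl5, Xcl1, Itgae, Ccr9, Cxcr6 and Il2rb. Fewest remained without ZnSO4 + Dex replicate 1 (15 calls), which ended those of Cd247, Cd8b1, Cd6, Zap70, Prf1, Ctsw, Cd96 and Tbx21. Without water + Dex replicate 2 there were 16 of the 23, and without water + PBS replicate 2 there were 17. Without the 3 libraries rich in B cell transcript, 21 members and 3.3% of all genes were downregulated.

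**Figure D1:**
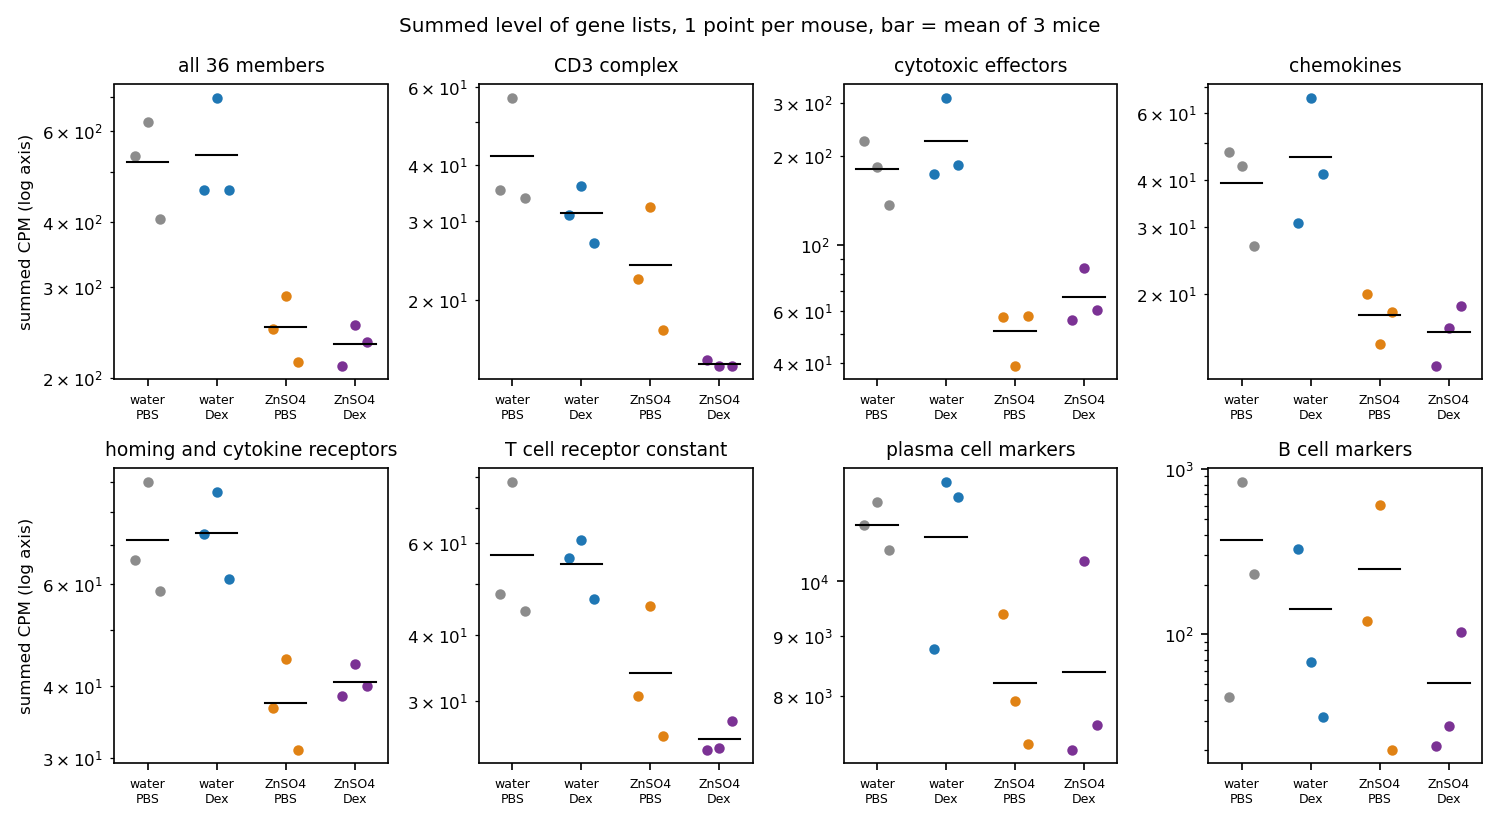
Summed CPM (log axis) of the 36 members, of 4 of their roles and of 3 other gene lists in the 4 groups, with 1 point per mouse and a bar at the mean of 3 mice. The ZnSO4 mice lie at 211 to 288 CPM for all members and the water mice at 407 to 696 CPM, while the B cell markers spread from 20.1 to 834 CPM.

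Of the 6 cytotoxic effectors, 5 were downregulated by ZnSO4, and their summed level in ZnSO4 mice was 29.2% of that in water mice, the lowest such share of the 8 roles. Gzma (ENSMUSG00000023132, chr13:113093825-113100981, minus strand) had 1570.4, 1229.9 and 1023 normalised counts with water + PBS, 1347, 2532 and 1493 with water + Dex, 399.8, 239.7 and 415 with ZnSO4 + PBS, and 403, 624 and 469 with ZnSO4 + Dex. Every ZnSO4 mouse was below every water mouse, and water + Dex replicate 2 was the highest of all (LFC -1.85, SE 0.20, adjusted p = 0.00020). Gzmb (ENSMUSG00000015437, chr14:56258838-56262260, minus strand), the gene of granzyme B, which cleaves caspases in target cells, had 749, 571 and 373 normalised counts with water + PBS, 456, 753 and 435 with water + Dex, 115, 81.4 and 141 with ZnSO4 + PBS, and 119, 206 and 123 with ZnSO4 + Dex. Here too the ZnSO4 and water mice were apart, and this was the largest fall of any member (LFC -2.10, SE 0.23, adjusted p = 0.00020). Nkg7 (ENSMUSG00000004612, chr7:43437073-43438249, plus strand), a granule membrane protein needed for degranulation, had 112, 119 and 61.8 normalised counts with water + PBS, 73.6, 116 and 92.9 with water + Dex, 62.2, 59.5 and 49.1 with ZnSO4 + PBS, and 34.2, 46.1 and 33.1 with ZnSO4 + Dex. Only ZnSO4 + PBS replicate 1 and water + PBS replicate 3 overlapped (LFC -1.04, SE 0.18, adjusted p = 0.0037). The pore-forming protein gene Prf1 (LFC -1.03, adjusted p = 0.028) and Ctsw, a cathepsin of cytotoxic cells (LFC -0.68, adjusted p = 0.028), were also downregulated, but were near the threshold. Prf1 lost its call (adjusted p up to 0.072) without water + PBS replicate 2, water + Dex replicate 1 or 2, ZnSO4 + PBS replicate 2 or 3, or ZnSO4 + Dex replicate 1. Ctsw lost it (adjusted p up to 0.061) without replicate 2 of water + PBS or water + Dex, any ZnSO4 + PBS mouse, or replicate 1 or 3 of ZnSO4 + Dex. Fasl, the ligand of the death receptor Fas, had 3.71 to 31.3 normalised counts and was not called (LFC -0.73, adjusted p = 0.19).

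The ratio of the granzyme genes was lowest in the mice with neither treatment. Per exon length, Gzma exceeded Gzmb 3.33 ± 0.509 times with water + PBS (SD, n = 3), 4.64 ± 0.368 times with water + Dex, 4.46 ± 0.437 times with ZnSO4 + PBS and 4.87 ± 0.558 times with ZnSO4 + Dex. The water + PBS mice, at 2.99 to 3.91, were all below the mice of the other 3 groups, at 4.20 to 5.45. No test was run on these ratios.

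All 4 genes of the CD3 complex were downregulated by ZnSO4, with a median LFC of -0.99. Cd3e (ENSMUSG00000032093, chr9:44998740-45009627, minus strand), the ε chain, had 93.4, 165 and 119.7 normalised counts with water + PBS, 103, 112 and 108 with water + Dex, 67.9, 92.4 and 56.5 with ZnSO4 + PBS, and 48.7, 44.2 and 47.00 with ZnSO4 + Dex. The water mice were all above the ZnSO4 mice, by a margin of about 1 normalised count between the nearest mice (LFC -1.002, SE 0.15, adjusted p = 0.0016). Cd3g (ENSMUSG00000002033, chr9:44969572-44980431, minus strand), the γ chain, had 194, 271 and 156 normalised counts with water + PBS, 127, 159 and 122 with water + Dex, 114, 153 and 85.2 with ZnSO4 + PBS, and 65.3, 80.7 and 64.1 with ZnSO4 + Dex. Its ZnSO4 + PBS mice overlapped with the water + Dex mice (LFC -0.89, SE 0.17, adjusted p = 0.0061). Cd3d (LFC -0.98, adjusted p = 0.021) and Cd247, the ζ chain (LFC -1.12, adjusted p = 0.036), were nearer to the threshold. The call of Cd3d was lost without water + Dex replicate 1 or 2 (adjusted p up to 0.052), and that of Cd247 was kept in 3 of 12 fits, those without water + PBS replicate 3, water + Dex replicate 3 or ZnSO4 + PBS replicate 2 (adjusted p up to 0.095 in the others). In Cd247, 56.4% of exonic bases overlap with genes on the opposite strand, among them Pou2f1, and whether reads were counted by strand is not given in the sources used here.

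Among coreceptors and T cell surface proteins, 4 of 7 were downregulated. Cd8a (ENSMUSG00000053977, chr6:71373427-71379173, plus strand), the α chain of the coreceptor for MHC class I, had 261, 322 and 226 normalised counts with water + PBS, 278, 434 and 295 with water + Dex, 135, 136 and 95.4 with ZnSO4 + PBS, and 123, 148 and 108 with ZnSO4 + Dex. No ZnSO4 mouse reached a water mouse (LFC -1.27, SE 0.15, adjusted p = 0.00031). Cd7 (ENSMUSG00000025163, chr11:121036747-121039418, minus strand), an immunoglobulin-like protein of T and NK cells, had 197, 165 and 157 normalised counts with water + PBS, 159, 265 and 173 with water + Dex, 83.9, 76.9 and 74.1 with ZnSO4 + PBS, and 89.2, 86.4 and 80.1 with ZnSO4 + Dex. All 6 ZnSO4 mice lay close together, well under the lowest water mouse (LFC -1.18, SE 0.13, adjusted p = 0.00020). Cd8b1 (ENSMUSG00000053044, chr6:71322788-71337494, plus strand), the β chain that marks the CD8αβ form, had 64.2, 76.2 and 33.3 normalised counts with water + PBS, 49.1, 72.4 and 43.2 with water + Dex, 29.2, 60.4 and 17.6 with ZnSO4 + PBS, and 17.6, 20.2 and 20.3 with ZnSO4 + Dex. Its mice overlapped, with ZnSO4 + PBS replicate 2 high and water + PBS replicate 3 low (LFC -1.09, SE 0.30, adjusted p = 0.034), and the call was kept in 3 of 12 fits, those without water + PBS replicate 3, water + Dex replicate 3 or ZnSO4 + PBS replicate 2, with an adjusted p of up to 0.085 in the others. Cd6 (LFC -1.15, adjusted p = 0.020) was downregulated except without ZnSO4 + Dex replicate 1 (adjusted p = 0.051). Not called were Cd5 (LFC -1.19, adjusted p = 0.057), the adhesion molecule gene Cd2 (LFC -0.76, adjusted p = 0.46) and Thy1 (LFC -0.24, adjusted p = 0.38).

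The β to α ratio of the CD8 chains, per exon length, was 0.515 ± 0.134 with water + PBS, 0.400 ± 0.0377 with water + Dex, 0.690 ± 0.345 with ZnSO4 + PBS and 0.382 ± 0.0691 with ZnSO4 + Dex (SD, n = 3 each). In most mice Cd8b1 was thus present at a lower level per length than Cd8a, and the spread within ZnSO4 + PBS, 0.452 to 1.09, was wider than any difference between groups. Of Cd8b1, 8.40% of 31-base stretches also occur in other genes, and reads with more than 1 position had been excluded.

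Of the 6 receptor-proximal signalling genes, 1 was downregulated. Zap70, the kinase that binds the phosphorylated CD3 chains, had LFC -0.87, adjusted p = 0.020, a call kept except without ZnSO4 + Dex replicate 1 (adjusted p = 0.051). Lck (LFC -0.98, adjusted p = 0.065), the adaptor gene Lat (LFC -0.66, adjusted p = 0.16), Themis (LFC -0.67, adjusted p = 0.25), Txk (LFC -0.65, adjusted p = 0.15) and the adaptor gene Skap1 (LFC -0.39, adjusted p = 0.41) were below 0 and were not called. In each of these genes water + PBS replicate 2, the mouse with the most B cell transcript, was the highest of its group.

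Both chemokine genes were downregulated, and their sum in ZnSO4 mice was 39.4% of that in water mice. Ccl5 (ENSMUSG00000035042, chr11:83525778-83530518, minus strand), a chemokine stored by memory and effector T cells, had 519.6, 477 and 291 normalised counts with water + PBS, 343, 732 and 462 with water + Dex, 223, 157 and 195 with ZnSO4 + PBS, and 145, 182 and 210.4 with ZnSO4 + Dex. The highest ZnSO4 mouse was under the lowest water mouse (LFC -1.34, SE 0.20, adjusted p = 0.0014). Xcl1 (ENSMUSG00000026573, chr1:164931644-164935527, minus strand), which attracts cross-presenting dendritic cells, had 19.5, 19.1 and 14.3 normalised counts with water + PBS, 7.81, 16.2 and 8.64 with water + Dex, 5.66, 10.98 and 10.2 with ZnSO4 + PBS, and 2.07, 2.88 and 1.07 with ZnSO4 + Dex. It was low in all mice and lowest in the 3 ZnSO4 + Dex mice (LFC -1.66, SE 0.30, adjusted p = 0.0047). Of its exonic bases, 18.7% overlap with Gm20743 on the opposite strand.

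Homing, retention and cytokine receptors were downregulated in 4 of 5 cases. Itgae (ENSMUSG00000005947, chr11:73090583-73147446, plus strand) had 322, 314 and 224 normalised counts with water + PBS, 309, 491 and 362 with water + Dex, 168, 158 and 148 with ZnSO4 + PBS, and 232, 210.3 and 216 with ZnSO4 + Dex. The ZnSO4 mice were below the water mice within each injection, but the highest ZnSO4 + Dex mouse was above the lowest water + PBS mouse (LFC -0.84, SE 0.12, adjusted p = 0.0012). Ccr9 (ENSMUSG00000029530, chr9:123678439-123784330, plus strand), the receptor for the gut chemokine CCL25, had 183, 242 and 174 normalised counts with water + PBS, 139, 231 and 134 with water + Dex, 118, 108 and 84.3 with ZnSO4 + PBS, and 101, 122 and 100.4 with ZnSO4 + Dex. The water and ZnSO4 mice did not overlap (LFC -0.79, SE 0.16, adjusted p = 0.0072), and 19.0% of its exonic bases lie opposite Gm17200 or Slc6a20a. Cxcr6 (ENSMUSG00000048521, chr9:123806475-123811760, plus strand), the receptor of CXCL16 on tissue-resident T cells, had 72.97, 87.3 and 67.5 normalised counts with water + PBS, 36.8, 38.9 and 37.8 with water + Dex, 46.2, 61.3 and 46.3 with ZnSO4 + PBS, and 18.7, 20.2 and 14.95 with ZnSO4 + Dex. Within each injection all ZnSO4 mice were below all water mice, and within each water all Dex mice were below all PBS mice (LFC -0.82, SE 0.13, adjusted p = 0.0019). Il2rb (ENSMUSG00000068227, chr15:78479256-78495271, minus strand), the β chain shared by the receptors of interleukins 2 and 15, had 124 to 259 normalised counts in water mice and 50.02 to 109.8 in ZnSO4 mice (LFC -1.13, SE 0.24, adjusted p = 0.0099). Cd69, a marker of activation and residence, was not called (LFC -1.03, adjusted p = 0.13).

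Among the receptors shared with NK cells, 2 of the 3 tested were downregulated. Cd160 (ENSMUSG00000038304, chr3:96798763-96829351, minus strand), a receptor common on IELs, had 77.8, 82.3 and 61.8 normalised counts with water + PBS, 64.7, 108 and 67.00 with water + Dex, 40.5, 51.2 and 39.8 with ZnSO4 + PBS, and 25.9, 44.2 and 30.97 with ZnSO4 + Dex. All ZnSO4 mice were below all water mice (LFC -0.99, SE 0.18, adjusted p = 0.0039). Cd96 was downregulated too (LFC -1.04, adjusted p = 0.028), and kept its call in 7 of 12 fits, losing it (adjusted p up to 0.071) without water + PBS replicate 1 or 2, water + Dex replicate 2, ZnSO4 + PBS replicate 1 or ZnSO4 + Dex replicate 1. Klrd1 (CD94), which pairs with NKG2 receptors, was not called (LFC -0.39, adjusted p = 0.27), and 4 of the ZnSO4 mice lay within the range of the water mice.

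Of the transcription factor genes, 1 of 2 was downregulated by ZnSO4. Tbx21 (ENSMUSG00000001444, chr11:97098071-97115331, minus strand), which encodes T-bet, a driver of cytotoxic and type 1 genes, had 24.3, 35.1 and 19.95 normalised counts with water + PBS, 18.96, 18.4 and 7.56 with water + Dex, 15.1, 16.5 and 9.26 with ZnSO4 + PBS, and 7.26, 4.80 and 8.54 with ZnSO4 + Dex. It was downregulated (LFC -1.03, SE 0.28, adjusted p = 0.034), although the mice overlapped, and the call was kept in 4 of 12 fits, those without water + PBS replicate 3, water + Dex replicate 3, ZnSO4 + PBS replicate 2 or ZnSO4 + Dex replicate 3 (adjusted p up to 0.091 in the others). Bcl11b (ENSMUSG00000048251, chr12:107910403-108003602, minus strand), a factor of T cell commitment, had 443, 393 and 394 normalised counts with water + PBS, 272, 299 and 239.9 with water + Dex, 358, 330.3 and 352 with ZnSO4 + PBS, and 265, 262 and 284 with ZnSO4 + Dex. Its ZnSO4 and water mice largely shared 1 range (LFC -0.12, SE 0.07, adjusted p = 0.27), the LFC nearest to 0 of all members.

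**Figure D2:**
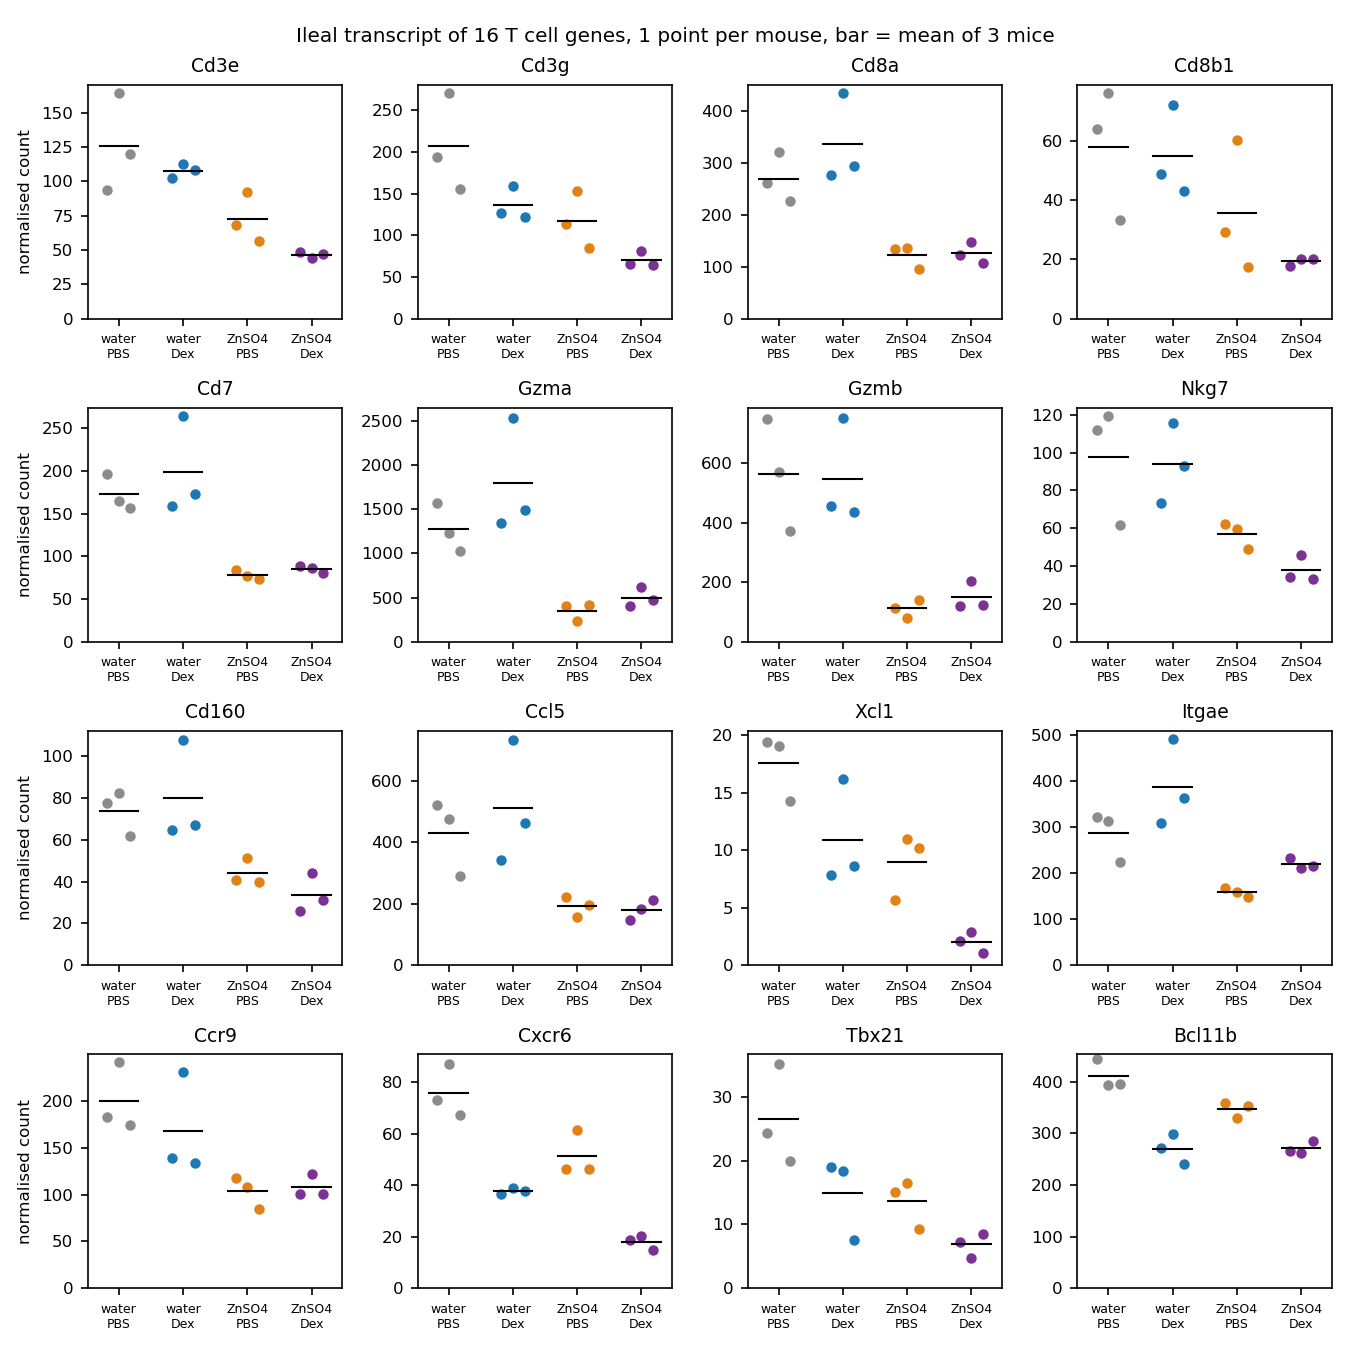
Normalised counts of 16 members in the 4 groups, 1 point per mouse, with a bar at the mean of 3 mice. Gzma, Gzmb, Cd8a and Cd7 are lower in both ZnSO4 groups, Bcl11b is lower in both Dex groups (240 to 299 against 330 to 443), and Cxcr6 steps down with each treatment.

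The size of the fall varied by role. Among the genes tested, the median LFC was -1.50 for the 2 chemokine genes, -1.15 for the coreceptors and surface proteins, -1.04 for the cytotoxic effectors, -0.99 for the CD3 complex and for the receptors shared with NK cells, -0.84 for the homing and cytokine receptors, -0.67 for receptor-proximal signalling and -0.58 for the transcription factors. As sums of CPM, ZnSO4 mice had 51.9% of the level of water mice for coreceptors, 52.4% for the CD3 complex, 53.8% for homing and cytokine receptors, 56.7% for the receptors shared with NK cells, 59.1% for receptor-proximal signalling and 88.4% for the transcription factors. No difference between roles was tested.

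In relation to the CD3 genes, taken as the sum of the 4 per exon length in each mouse, Gzmb was 2.72 ± 1.24 in water + PBS mice and 0.982 ± 0.538 in ZnSO4 + PBS mice (SD, n = 3), and 3.26 ± 0.643 and 2.01 ± 0.711 in the corresponding Dex groups. For Cd8a these ratios were 0.499 and 0.385 with PBS and 0.794 and 0.671 with Dex, and for Itgae 0.427 and 0.407 with PBS and 0.731 and 0.923 with Dex. Other members had higher ratios on ZnSO4 with both injections. For Thy1 they were 0.394 and 0.592 with PBS and 0.417 and 0.782 with Dex. For Bcl11b they were 0.353 and 0.511 with PBS and 0.289 and 0.643 with Dex. The ratios of the remaining members are not given here, and no ratio was tested. When the log level of the CD3 genes was added to the model as a covariate, 0 of the 31 other members tested were called for ZnSO4, where 19 of them were called without it. With this covariate, however, only 36 genes (0.226% of all) were called downregulated. The covariate was itself made of members downregulated by ZnSO4, at 26.8 to 56.6 CPM in water mice and 14.2 to 32.4 CPM in ZnSO4 mice. It thus largely followed the water given, and this fit cannot show whether other members changed beyond the CD3 genes.

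**Figure D3:**
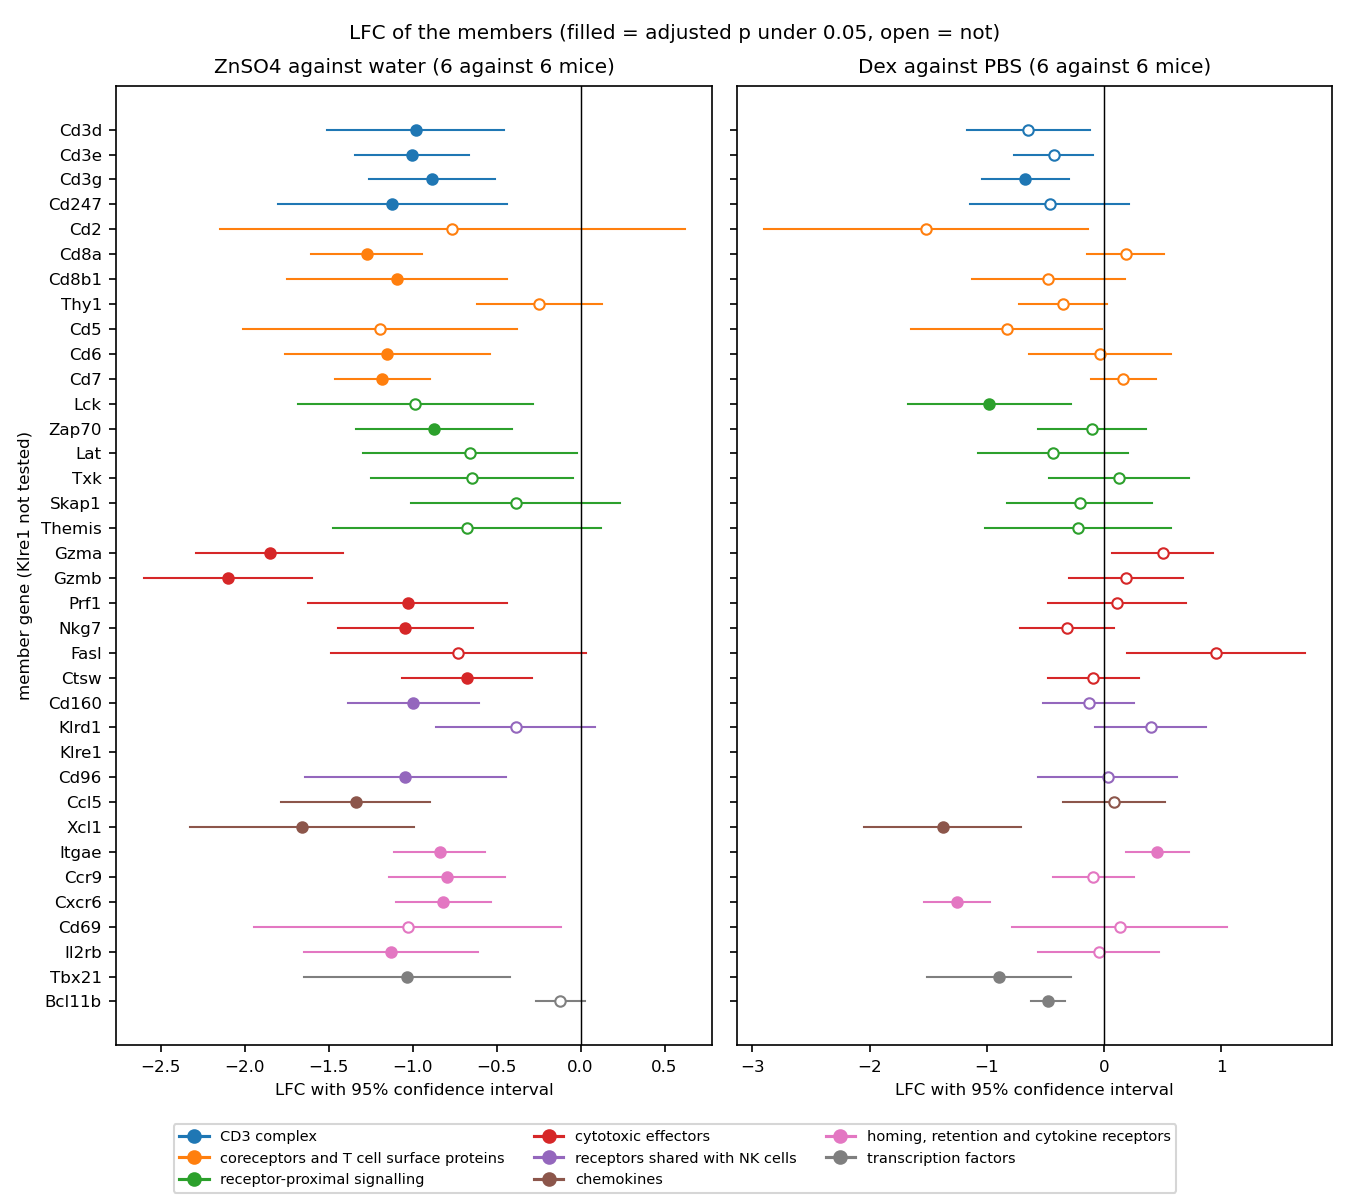
LFC with its 95% confidence interval for the 35 members tested, for ZnSO4 against water and for Dex against PBS, each with 6 against 6 mice. Filled points have an adjusted p under 0.05. All points of the zinc panel lie below 0, with Gzmb at -2.10 and Bcl11b at -0.12, while the Dex panel spreads on both sides of 0, from Cd2 at -1.52 to Fasl at 0.95.

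With PBS injection, 7 days of ZnSO4 downregulated 8 members and upregulated 0, against 2.54% and 2.11% of all genes. These were Gzmb (LFC -2.33, SE 0.33, adjusted p = 0.0030), Gzma (LFC -1.86, SE 0.28, adjusted p = 0.0048), Il2rb (LFC -1.32, adjusted p = 0.048), Ccl5 (LFC -1.16, adjusted p = 0.041), Cd8a (LFC -1.14, SE 0.21, adjusted p = 0.013), Cd7 (LFC -1.14, SE 0.18, adjusted p = 0.0060), Ccr9 (LFC -0.95, adjusted p = 0.036) and Itgae (LFC -0.86, adjusted p = 0.020). The median LFC over the 35 members was -0.82, all were below 0, and in 18 of them no ZnSO4 + PBS mouse overlapped with a water + PBS mouse, which held for 12.9% of all genes. The calls of Cd7, Gzma and Gzmb were kept in 12 of 12 fits without 1 library. That of Cd8a was lost without ZnSO4 + PBS replicate 3 (adjusted p = 0.056), which left 3 calls, and 4 calls were left without ZnSO4 + PBS replicate 1, water + PBS replicate 1 or water + PBS replicate 2. Without ZnSO4 + PBS replicate 2 or ZnSO4 + Dex replicate 1, 5 calls were left. Without the 3 libraries rich in B cell transcript, 2 members were downregulated, Gzma and Il2rb, and 0.455% of all genes.

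In mice injected with Dex, ZnSO4 downregulated 12 members and upregulated 0, with 2.54% of all genes downregulated and 1.83% upregulated. The largest falls were those of Xcl1 (LFC -2.35, adjusted p = 0.021), Gzmb (LFC -1.87, SE 0.32, adjusted p = 0.0079), Gzma (LFC -1.84, SE 0.28, adjusted p = 0.0043) and Ccl5 (LFC -1.52, adjusted p = 0.013). Also called were Cd8a (LFC -1.41, SE 0.21, adjusted p = 0.0041), Cd3d (LFC -1.39, adjusted p = 0.048), Nkg7 (LFC -1.31, adjusted p = 0.018), Cd160 (LFC -1.24, adjusted p = 0.019), Cd7 (LFC -1.22, SE 0.18, adjusted p = 0.0038), Cd3e (LFC -1.21, adjusted p = 0.012), Cxcr6 (LFC -1.07, SE 0.19, adjusted p = 0.011) and Itgae (LFC -0.82, adjusted p = 0.022). The median LFC of the members was -1.08, 34 of the 35 were below 0, and in 26 the ZnSO4 + Dex mice were all under the water + Dex mice, against 13.2% of all genes. The calls of Cd3e, Cd8a, Cd7, Gzma, Gzmb and Cxcr6 were kept in 12 of 12 fits, and 6 calls were left without ZnSO4 + Dex replicate 1, 7 without ZnSO4 + Dex replicate 3 and 7 without water + Dex replicate 2. Without the 3 libraries rich in B cell transcript, 12 members and 1.1% of all genes were downregulated.

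These comparisons used separate mice. Cd8a, Cd7, Gzma, Gzmb, Ccl5 and Itgae were downregulated in both, and 34 of the 35 members (97.1%) had an LFC below 0 in both, against 35.1% of all genes. Across the members, the LFC with PBS and that with Dex had a Pearson's r of 0.53 and a Spearman's rho of 0.39 (n = 35 genes of the same libraries, which are not independent), where all 15938 genes had 0.56 and 0.54. The LFC of a member differed between the injections by a median of 0.35, and that of any gene by 0.17. Many members had few reads, and genes of like read number were not compared. The larger median thus cannot be taken as particular to the members. The test of the difference, the interaction of ZnSO4 and Dex, called 0 members and 0% of the 15938 genes. At an unadjusted p under 0.05 it gave 794 genes, of which 1 was a member, Xcl1 (LFC -1.39, unadjusted p = 0.0449), and the lowest adjusted p of a member was 0.952.

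**Figure D4:**
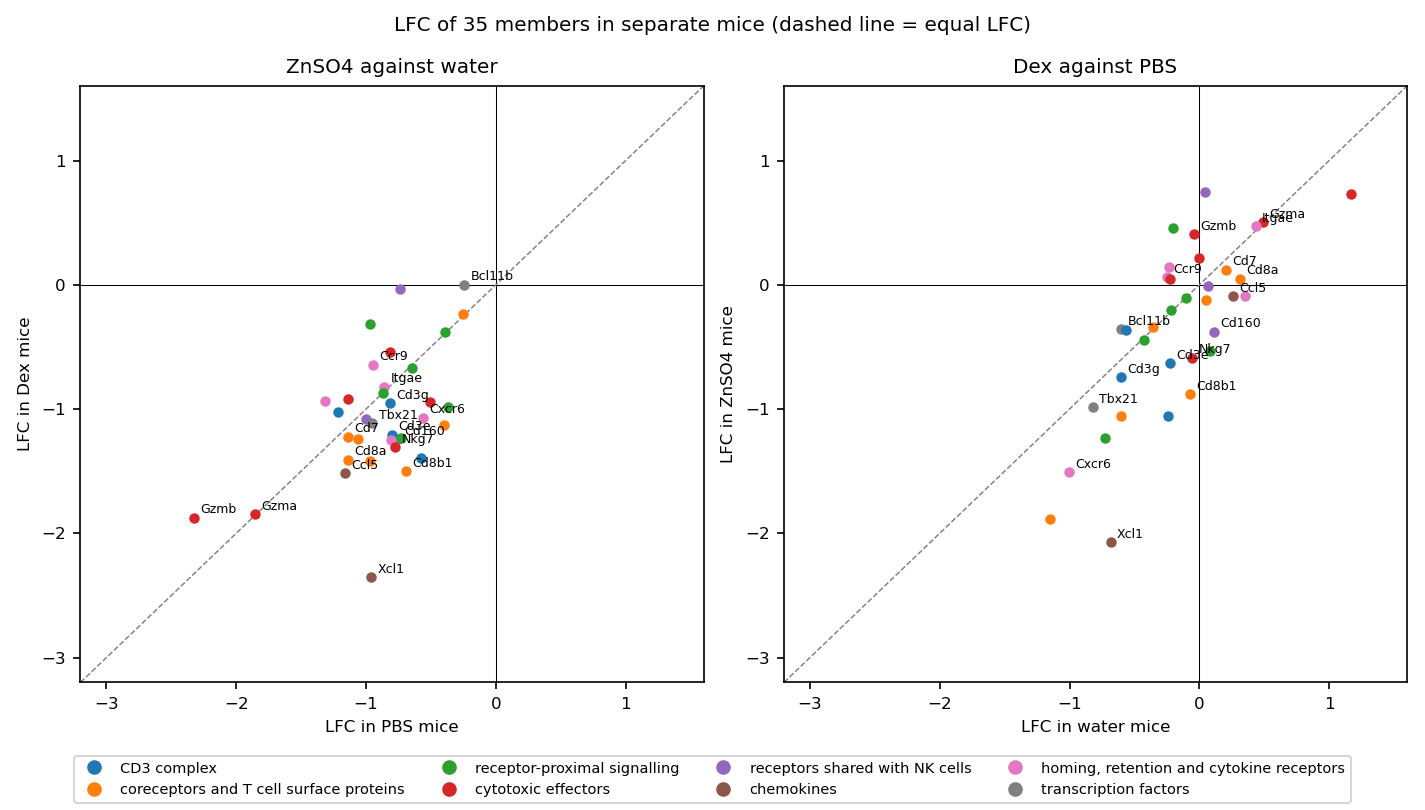
LFC of the 35 members tested by ZnSO4 in mice injected with PBS (horizontal) and with Dex (vertical), and by Dex in mice on water and on ZnSO4, with colours for the roles and a dashed line at equal LFC. In the zinc panel 34 points lie below 0 on both axes. In the Dex panel 17 members are below 0 and 6 above 0 on both axes.

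Averaged over both waters, Dex downregulated 6 of the 35 members and upregulated 1, where it downregulated 11.2% and upregulated 10.4% of all genes. The median LFC was -0.13. With an LFC over 0.8 required, 4 were downregulated, against 2.64% of all genes. The downregulated genes were Cxcr6 (LFC -1.25, SE 0.13, adjusted p = 3.0e-05), Xcl1 (LFC -1.38, SE 0.31, adjusted p = 0.0070), Bcl11b (LFC -0.48, SE 0.07, adjusted p = 0.00031), Cd3g (LFC -0.67, SE 0.17, adjusted p = 0.014), Tbx21 (LFC -0.90, SE 0.28, adjusted p = 0.040) and Lck (LFC -0.98, SE 0.32, adjusted p = 0.048). The upregulated gene was Itgae (LFC 0.45, SE 0.12, adjusted p = 0.021). Only in Cxcr6 and Bcl11b were all 6 Dex mice below all 6 PBS mice, a pattern of 4.9% of all genes. The calls of Cxcr6, Xcl1, Bcl11b and Cd3g were kept in 12 of 12 fits without 1 library. Itgae lost its call without water + Dex replicate 2 (adjusted p = 0.054) or ZnSO4 + Dex replicate 1 (adjusted p = 0.051). Tbx21 kept it in 5 fits, those without water + PBS replicate 3, water + Dex replicate 1 or 2, ZnSO4 + PBS replicate 3 or ZnSO4 + Dex replicate 3, and Lck in 4 fits, those without water + PBS replicate 1 or 3, ZnSO4 + PBS replicate 3 or ZnSO4 + Dex replicate 3. Without the 3 libraries rich in B cell transcript, Itgae was upregulated (7.11% of all genes), Cxcr6 and Bcl11b were downregulated (7.07%) and the other 4 were not called.

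Bcl11b and Cxcr6 were the members downregulated by Dex in mice on water, where 4.51% of all genes were downregulated and 5.41% upregulated. On water, Bcl11b ranged from 393 to 443 normalised counts with PBS and from 240 to 299 with Dex (LFC -0.60, SE 0.10, adjusted p = 0.0018), and Cxcr6 from 67.5 to 87.3 with PBS and from 36.8 to 38.9 with Dex (LFC -1.002, SE 0.18, adjusted p = 0.0035). Both calls were kept in 12 of 12 fits. With an LFC over 0.8 required, Cxcr6 alone was called, against 1.64% of all genes. On ZnSO4, 3 members were downregulated (7.08% of all genes) and 0 upregulated (6.65%): Cxcr6 (LFC -1.51, SE 0.19, adjusted p = 0.00030), Xcl1 (LFC -2.07, adjusted p = 0.016) and Bcl11b (LFC -0.36, SE 0.09, adjusted p = 0.027). There the call of Cxcr6 was kept in 12 of 12 fits, and only that call was left without ZnSO4 + PBS replicate 3 or ZnSO4 + Dex replicate 1. Bcl11b also lost its call without ZnSO4 + PBS replicate 1 or ZnSO4 + Dex replicate 2, and Xcl1 without ZnSO4 + PBS replicate 2 or ZnSO4 + Dex replicate 3. Without the 3 libraries rich in B cell transcript 1 member was downregulated on each water, Bcl11b on normal water (1.74% of all genes) and Cxcr6 on ZnSO4 (4.4%). Across the members, the 2 Dex effects, again from separate mice, had a Pearson's r of 0.76 and a Spearman's rho of 0.71 (n = 35 genes), where all genes had 0.72 and 0.62, and 17 members were below 0 and 6 above 0 in both, against 36.05% and 35.3% of all genes.

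Granule and CD8 genes did not pass the test for Dex. Gzma had LFC 0.50, adjusted p = 0.096, with water + Dex replicate 2 far above all other mice at 2532 normalised counts. Gzmb (LFC 0.18, adjusted p = 0.61), Cd8a (LFC 0.18, adjusted p = 0.43), Cd7 (LFC 0.16, adjusted p = 0.41) and Ccl5 (LFC 0.08, adjusted p = 0.82) had small differences that did not pass. Fasl had LFC 0.95, adjusted p = 0.074. The highest level of the group was in water + Dex replicate 2 for 27 of the 36 members, but this mouse was not the one rich in B cell transcript. The share of all genes highest in that mouse was not computed.

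In mice with both treatments, set against mice with neither, 22 members were downregulated and 0 upregulated, where 11.9% of all genes were downregulated and 11.5% upregulated, and the median LFC was -1.13. In 27 members the ZnSO4 + Dex mice were all below the water + PBS mice, which held for 18.9% of all genes. Among the called genes, the largest falls were those of Xcl1 (LFC -3.03, SE 0.46, adjusted p = 0.00070), Cxcr6 (LFC -2.07, SE 0.19, adjusted p = 2.1e-05), Cd5 (LFC -2.02, adjusted p = 0.019), Lck (LFC -1.96, adjusted p = 0.010), Tbx21 (LFC -1.93, adjusted p = 0.0052) and Gzmb (LFC -1.92, adjusted p = 0.0013). Cd3g (LFC -1.56, adjusted p = 0.00089) and Cd3e (LFC -1.43, adjusted p = 0.00082) fell as well. Without ZnSO4 + Dex replicate 1 or water + PBS replicate 2, 15 calls were left, those of Cd247, Cd8b1, Cd5, Zap70, Ctsw, Ccr9 and Il2rb being lost each time. Without the 3 libraries rich in B cell transcript, 18 members and 7.79% of all genes were downregulated. Xcl1 was close to the limit of detection in the ZnSO4 + Dex mice, with 2, 3 and 1 reads. These were 6 reads in all, against 54 in the water + PBS mice, 30 in the water + Dex mice and 29 in the ZnSO4 + PBS mice. Scaled for the summed library totals of the groups, the ratio was 0.117 to water + PBS (95% interval 0.0410 to 0.271), 0.202 to water + Dex (0.0689 to 0.494) and 0.219 to ZnSO4 + PBS (0.0744 to 0.537), by exact binomial intervals that cover counting error only.

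Cd2, Thy1, Lat, Txk, Skap1, Themis, Fasl, Klrd1 and Cd69 were tested and called in none of the 8 comparisons, and with the untested Klre1 they make 10 of the 36. Cd2 spread over 9.92-fold among the water + PBS mice, at 15.6, 154 and 45.6 normalised counts, and over 6.12-fold among the ZnSO4 + PBS mice, at 31.1, 113 and 18.5. In both groups the high mouse was replicate 2, the one with the most B cell transcript. On ZnSO4 + PBS this mouse also had the lowest summed level of the 2 zinc-responsive genes checked, Mt1 and Slc39a4, at 1084 CPM. Replicates 1 and 3 had 1956 and 2005 CPM. Whether the Cd2 level was linked to either difference was not tested. Across the members, replicate 2 was the highest of the 3 water + PBS mice for 26 of 36 and the highest of the 3 ZnSO4 + PBS mice for 24 of 36. In water + Dex, however, the mouse rich in B cell transcript, replicate 1, was the highest for 9 only. The corresponding shares of all genes were not computed.

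Members differed in how far they moved with B cell transcript. In the B cell-rich mice of the PBS groups, 27 members were above the mean of the other mice of their group in both, 15 of them more than 1.5-fold, and 3 were below it in both. Counting the B cell-rich mouse of the water + Dex group as well, 11 members were above that mean in all 3 groups. The shares of all genes with these patterns were not computed. The counts thus cannot show whether the members followed B cell transcript more than other genes did. In the water + PBS, ZnSO4 + PBS and water + Dex groups, Cd2 was at 5.05, 4.57 and 3.13 times the mean of the other mice, Lck at 2.43, 2.47 and 1.37, the αβ receptor gene Trac at 2.62, 3.21 and 1.26, and Txk at 2.43, 1.76 and 0.655. Gzma was at 0.948, 0.588 and 0.669 of the other mice, Cd7 at 0.931, 0.973 and 0.729, and the γ chain genes Tcrg-C1 at 1.04, 0.934 and 0.811 and Tcrg-C2 at 0.896, 0.528 and 0.827. None of the 12 B cell genes was called in any comparison, with a median LFC of -1.08 for ZnSO4 and -1.95 for Dex. With the B cell level as a covariate, 25 members and 6.51% of all genes were downregulated by ZnSO4, and 3 members (Xcl1, Cxcr6 and Bcl11b) and 9.93% of all genes by Dex.

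The T cell receptor constant genes, which were not on the member list, were downregulated by ZnSO4 in 3 of 7 cases, against 6.52% of all genes. The median LFC of the 7 was -0.86. All 3 downregulated genes encode γ chains. Tcrg-C1 had 66.2, 74.2 and 76.97 normalised counts with water + PBS, 75.8, 81.01 and 106 with water + Dex, 35.8, 37.5 and 44.5 with ZnSO4 + PBS, and 50.8, 53.8 and 41.7 with ZnSO4 + Dex, so that all ZnSO4 mice were below all water mice (LFC -0.86, SE 0.12, adjusted p = 0.00098). Tcrg-C2 had LFC -1.23, SE 0.19, adjusted p = 0.0016 and Tcrg-C4 LFC -0.73, SE 0.14, adjusted p = 0.0073. Trac (LFC -0.98, adjusted p = 0.084), Trbc1 (LFC -0.86, adjusted p = 0.056), Trbc2 (LFC -1.07, adjusted p = 0.056) and Trdc (LFC -0.64, adjusted p = 0.069) did not pass the test. Trac had 88.5, 222 and 80.8 normalised counts with water + PBS, 125, 110.2 and 87.5 with water + Dex, 53.7, 162 and 47.2 with ZnSO4 + PBS, and 38.4, 35.5 and 49.1 with ZnSO4 + Dex, with replicate 2 of each PBS group far above the others. Whether the γ and αβ genes differed in their change was not tested. Some of these constant genes are close copies of each other, as Trbc1 and Trbc2 are, and multimapping reads had been excluded, so their levels are uncertain. Dex changed 0 of the 7, where it upregulated 10.4% and downregulated 11.2% of all genes.

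Of 30 further genes of T cell receptor signalling, ZnSO4 downregulated 3, where 6.52% of all genes were downregulated. These were the adaptor genes Trat1 (LFC -1.19, adjusted p = 0.017) and Sh2d2a (LFC -1.004, adjusted p = 0.047), and the phosphatase gene Ptpn22 (LFC -0.60, adjusted p = 0.038). The median LFC over the list was -0.40, and many of the 30 are active in other blood cells or in all cells. Dex upregulated 2 of them, Ptpn22 (LFC 1.63, SE 0.17, adjusted p = 3.7e-05), which dampens receptor signals, and Ctla4 (LFC 1.41, SE 0.32, adjusted p = 0.0074), an inhibitory receptor. Ptpn22 had 197, 333 and 221 normalised counts with water + PBS, 878, 747 and 625 with water + Dex, 122, 226 and 131 with ZnSO4 + PBS, and 536, 496 and 497 with ZnSO4 + Dex. All Dex mice were above all PBS mice. Dex downregulated 6 of the 30, among them Lcp2, Bcl10, Csk, Dgkz and Itpkb. Of all genes, Dex upregulated 10.4% and downregulated 11.2%. Among 12 genes of other T cell states, 9 were tested and ZnSO4 changed 0, Cd4 included (LFC -0.39, adjusted p = 0.35), while Dex upregulated 1, the interleukin 7 receptor gene Il7r (LFC 1.06, adjusted p = 0.0054), and downregulated 1. For Dex 8 of the 9 had an LFC below 0, with a median of -1.03. In each of the 3 groups with a B cell-rich mouse, the summed level of the 12 genes was highest in that mouse. It was 235 CPM in water + PBS (99.1 and 130 in the others), 185 in ZnSO4 + PBS (132 and 101) and 142 in water + Dex (124 and 94.4). How far the Dex median rests on those 3 libraries was not tested.

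Of 23 genes that encode ligands or partners of the members, 7 were downregulated by ZnSO4, against 6.52% of all genes. H2-T23, which encodes the ligand of CD94/NKG2 receptors, had 2983, 3537 and 2918 normalised counts with water + PBS, 3083, 3857 and 3545 with water + Dex, 2324, 2233 and 2058 with ZnSO4 + PBS, and 2296, 1744 and 2413 with ZnSO4 + Dex. All ZnSO4 mice were below all water mice (LFC -0.61, SE 0.09, adjusted p = 0.0015). Also downregulated by ZnSO4 were Il15ra (LFC -0.47, adjusted p = 0.0050), Tnfrsf14, a ligand of CD160 (LFC -0.41, adjusted p = 0.036), Fas (LFC -0.39, adjusted p = 0.043), Btnl4 (LFC -0.35, adjusted p = 0.010) and Cxcl16, the ligand of CXCR6 (LFC -0.28, adjusted p = 0.049). The E-cadherin gene Cdh1, the partner of CD103, had LFC -0.04, adjusted p = 0.79 and was not called.

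Il15, the cytokine on which IELs depend, had 126, 132 and 117 normalised counts with water + PBS, 176, 179 and 161 with water + Dex, 211, 221 and 203 with ZnSO4 + PBS, and 171, 120.0 and 201 with ZnSO4 + Dex. In PBS mice it was upregulated by ZnSO4 (LFC 0.76, SE 0.16, adjusted p = 0.021), and the 3 ZnSO4 + PBS mice were above all others. In Dex mice it was not called (LFC -0.07, adjusted p = 0.85). The interaction of ZnSO4 and Dex called 0 of the 15938 genes, so a difference between the injections was not shown for Il15. Il15ra, which presents the cytokine to lymphocytes, had 133, 126 and 113 normalised counts with water + PBS, 404, 410.5 and 381 with water + Dex, 98.1, 86.9 and 93.6 with ZnSO4 + PBS, and 316, 286 and 227 with ZnSO4 + Dex. Every Dex mouse was far above every PBS mouse (LFC 1.63, SE 0.09, adjusted p = 2.4e-07).

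Besides Il15ra, Dex upregulated Btnl4 (LFC 0.64, adjusted p = 7.8e-05) and Tnfrsf14 (LFC 0.49, adjusted p = 0.0091) among the partners and downregulated 6. Of all genes, 10.4% were upregulated and 11.2% downregulated by Dex. Xcr1, the receptor of XCL1 on dendritic cells, had 23.4, 38.1 and 23.8 normalised counts with water + PBS, 11.2, 15.1 and 10.8 with water + Dex, 18.9, 23.8 and 14.8 with ZnSO4 + PBS, and 10.4, 8.64 and 9.61 with ZnSO4 + Dex. On each water, the Dex mice were all below the PBS mice (LFC -1.09, SE 0.21, adjusted p = 0.0025). Fas (LFC -0.73, adjusted p = 0.00070), the nectin-like gene Pvr (LFC -0.42, adjusted p = 0.011), Ccl25, the ligand of CCR9 (LFC -0.30, adjusted p = 0.025), and Cxcl16 (LFC -0.28, adjusted p = 0.035) fell as well. Cxcr6 and Cxcl16, a receptor and its ligand, were thus both downregulated by each treatment, with a smaller LFC in the ligand. Both calls of Cxcl16 were near the threshold, and they were not followed in the fits without 1 library.

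**Figure D5:**
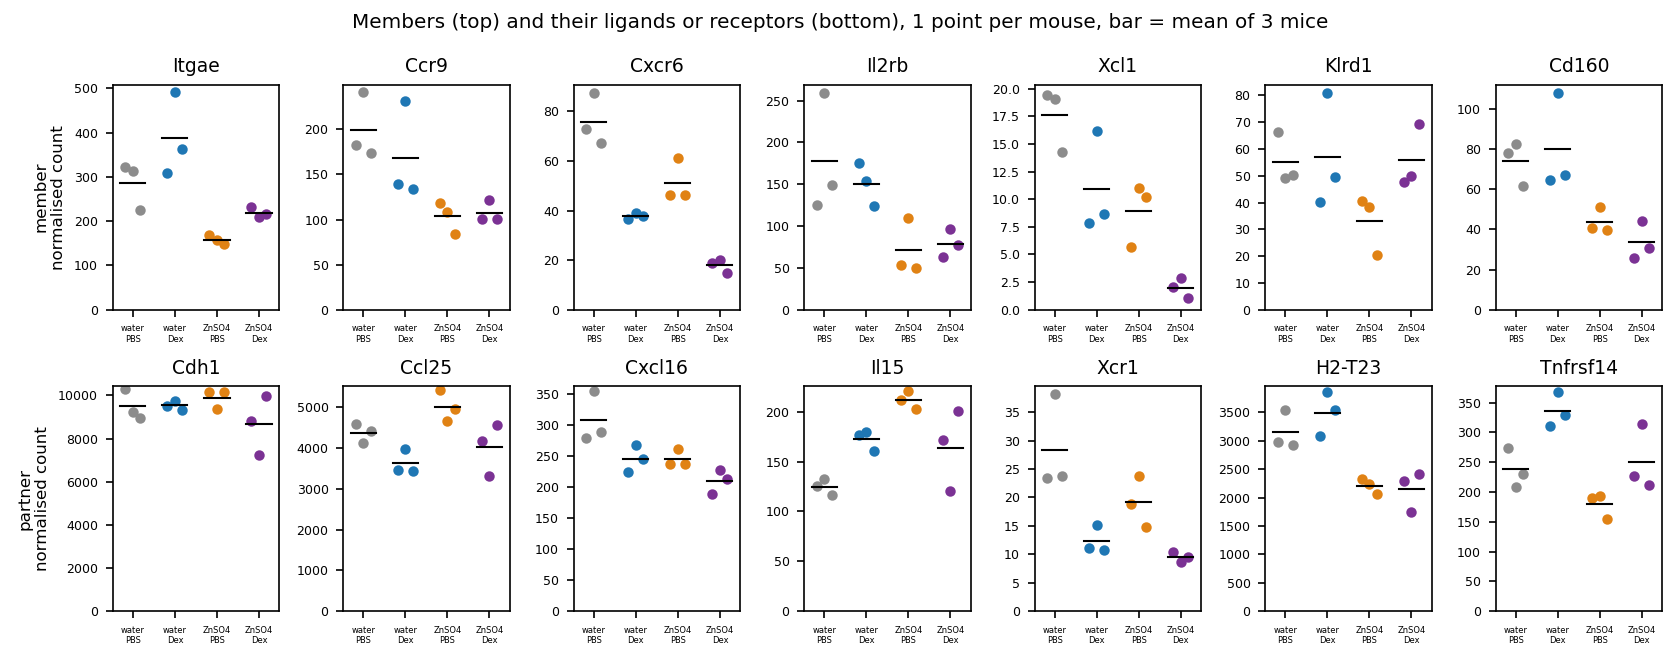
Normalised counts of 7 members (top) and of a ligand or receptor of each (bottom) in the 4 groups, 1 point per mouse, bar at the mean of 3 mice. Il15 is highest in the ZnSO4 + PBS mice (203 to 221), H2-T23 is lower in ZnSO4 than in water mice, and Cdh1 has no called difference.

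Genes of other cells of the ileum were read from lists chosen alongside the members. Of all genes, ZnSO4 downregulated 6.52% and upregulated 6.24%. It downregulated 3 of 7 plasma cell genes (Mzb1, Xbp1 and Derl3), and the summed level of the 7 was 75.2% of that in water mice. It also downregulated 1 of 12 macrophage and dendritic cell genes (Itgam, LFC -0.94, adjusted p = 0.00042). It changed 0 of 8 enterocyte genes, 0 of 4 genes tested for NK and innate lymphoid cells and 0 of 2 for neutrophils. The enterocyte sum was 97.6% of that in water mice, at 1.12 times the water level with PBS and 0.858 times with Dex. Among the ZnSO4 + Dex mice, replicate 2 was low at 12484 CPM, against 20778 and 25133 in replicates 1 and 3. ZnSO4 upregulated 1 of 6 smooth muscle genes (Tagln), the sum of which was 129.7% of that in water mice. From the mast cell list it upregulated 1 of 3 genes tested (Kit), with a sum of 146.4% over the list. With Kit the only gene called, this does not show that mast cell transcript as a whole rose. All 6 smooth muscle genes had an LFC above 0 (median 0.37). In all 6 the ZnSO4 + Dex mice were above the water + Dex mice without overlap, which was so, in the upward direction, for 12.7% of all genes. With PBS, their sum was 1558, 1278 and 1669 CPM on water and 1521, 1501 and 2704 CPM on ZnSO4, so only replicate 3 on ZnSO4 was above the water mice. These values stand beside those of the members, and the part of changed cell numbers in them was not tested.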

How the data were processed

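The authors prepared stranded libraries from ileal RNA, sequenced them single-end, mapped reads to mm10 (GRCm38) with hisat (HISAT2 2.0.4 in the submitters' processing notes, which also list Trimmomatic and SAMtools) and counted them per gene with featureCounts. Multimapping reads were excluded. The annotation release and strand setting are not given in the sources used here. The values deposited by the authors are raw counts of 54838 genes, 24517 of them 0 in all libraries.

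Statistics were computed here in edgeR 4.0.16 (R 4.3.3, limma 3.58.1). After filterByExpr by group (minimum count 10), 15938 genes with 99.8% of the counts were fitted in 1 quasi-likelihood model with TMM factors and 4 group means over all 12 libraries (glmQLFit, glmQLFTest), with Benjamini-Hochberg adjustment over all genes tested. The common biological coefficient of variation was 0.191. An SE is the LFC divided by the square root of F. Comparisons were each treatment on each background, each treatment averaged over the other (6 against 6 mice), both against neither, and the interaction. Libraries of 1 group differed by more than sampling noise (chi-square per degree of freedom 7.63 to 41.0). The procedure was tested on simulated data. DESeq2 1.42.0, other factors and filters, a replicate block, covariates and leaving out each library were alternatives, and leaving out 3 libraries rich in B cell transcript was chosen after seeing the data.

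The members and all gene lists were chosen with earlier results of these data known. Values in every mouse were given for the 14 members with the lowest adjusted p in any comparison and for Cd3e, Cd8a, Cd8b1, Gzma, Gzmb, Itgae, Ccr9 and Cxcr6, 16 genes in all. Positions and exon overlaps are from GENCODE for GRCm38 and promoters from a RefSeq table of GRCm38.p6. The exact binomial intervals given for the read ratios of Xcl1 cover counting error only. Some genes of the lists counted here are not reported by name.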

Additional observations from a re-analysis of the deposited data

How the results depend on the processing

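The count of members called moved by over 1.5 times in these cases. For ZnSO4 in PBS mice (8 members) it was 5 with only the groups compared in the fit and 2 without the 3 libraries rich in B cell transcript, where the share of all genes downregulated moved from 2.54% to 1.31% and 0.455%. For Dex in water mice (2) it was 1 without those libraries and 1 with an LFC over 0.8 required. For Dex in ZnSO4 mice (3) it was 1 without those libraries and 6 with DESeq2, with 4.4% and 7.46% of all genes downregulated in place of 7.08%. For Dex averaged over both waters (7) it was 3 with the B cell covariate, 3 without those libraries and 4 with an LFC over 0.8. With the CD3 covariate, where only the 31 tested members outside the CD3 complex could be counted, it was 0 for ZnSO4 on average (19 of these 31 without it), with PBS (8) and with Dex (10), and for both treatments against neither (18). The shares of all genes downregulated in that fit were 0.226%, 0.295%, 0.0439% and 0.947%. As the CD3 level itself fell with ZnSO4, these counts decide nothing about the members.

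Leaving out 1 library at a time gave 15 to 23 members for ZnSO4 on average (23), 3 to 9 with PBS (8) and 6 to 14 with Dex (12), 15 to 25 for both treatments against neither (22), 4 to 9 for Dex on average (7), 2 to 2 on water (2) and 1 to 5 on ZnSO4 (3). In these fits 4.34% to 6.34% of all genes were downregulated for ZnSO4 on average, 0.859% to 3.37% with PBS, 1.14% to 2.82% with Dex, 8.06% to 11.7% for both treatments, 8.95% to 10.9% for Dex on average, 2.47% to 5.14% on water and 4.48% to 7.07% on ZnSO4. An arm reduced to 2 mice was tested with the spread shared by all groups.

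Single LFCs were recomputed for the 16 members given mouse by mouse, in the 2 averaged comparisons and in any other that called them. Among these, the sign changed only where no call was made for the comparison or with the CD3 covariate. With that covariate these were Cd8b1 (0.32 for ZnSO4, 0.41 for Dex and 0.73 for both against neither), Ccr9 (0.25 for Dex and 0.071 for both) and Cd160 (0.15 for Dex). Without the libraries rich in B cell transcript they were Cd160 (0.037 for Dex) and Ccr9 (0.061 for Dex). For Ccl5, not called for Dex, the fits without 1 library gave -0.11 to 0.19, with -0.027 without water + PBS replicate 3 and -0.11 without water + Dex replicate 2. The causes were not tested. Of 720 values of these members under the other alternatives, 634 kept their direction and side of the threshold, 77 lost the call, 1 gained it and 8 changed sign.

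No effect shared by mice of the same replicate number was seen. Deviations from the group means correlated with a median r of -0.0557 between libraries of the same number (18 pairs). Between those of different numbers it was 0.0225 (36 pairs), and 4 of 12 libraries were closest to their own number. The labels do not say whether the numbers mark a pairing, and these values cannot exclude one. With the replicate block, 24 members were called for ZnSO4 on average, 10 with PBS and 14 with Dex, 6 for Dex on average, 3 on water and 4 on ZnSO4, 25 for both against neither and 0 for the interaction. The shares of all genes downregulated in that fit were 6.08% for ZnSO4 on average, 1.96% with PBS and 2.37% with Dex, 10.3% for Dex on average, 4% on water and 6.51% on ZnSO4, and 11.2% for both against neither.

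Depth limits the lowest members most: Xcl1 and Klre1 had 1 to 8 reads in some or all libraries, and genes with so few reads can change without passing a test.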
